A study of Mus musculus with 8 samples.

Results

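The clustered histone genes code for the core histones H2A, H2B, H3 and H4 and for the linker histone H1. They were taken as all array probes whose paired gene symbol begins with Hist1h, Hist2h, Hist3h or Hist4h. This gave 43 probes for 37 genes, of 41174 gene probes and 18322 genes with a symbol. By class there were 8 probes for 6 H1 genes, 11 probes for 11 H2A genes, 12 probes for 10 H2B genes, 4 probes for 4 H3 genes and 8 probes for 6 H4 genes. Of the 37 genes, 26 lie on chromosome 13, 7 on chromosome 3, 3 on chromosome 11 and 1 on chromosome 6. All 37 matched the RefSeq gene table, in which many carry newer names, such as H1f2 for Hist1h1c, and in which Hist3h2bb is a transcribed pseudogene.

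The study asked what a knockdown of Foxo6, a FoxO transcription factor, does to gene expression in the developing mouse cortex. C57/BL6 embryos were injected into a lateral ventricle at E14.5 (embryonic day) with 1 of the agents siFoxO6-2, siFoxO6-3 or a scrambled non-targeting siRNA, and electroporated in utero. A GFP expression vector was given together with the siRNA in all 3 groups, the controls included. Cortex was collected and dissociated at E16.5, and RNA came from cells sorted by flow cytometry. Cortices were combined into 4 pools for siFoxO6-2 and 4 pools for siFoxO6-3, which the labels call independent, and into a single scrambled pool. Each of the 8 two-colour arrays set 1 siRNA pool against that 1 scrambled pool. The siRNA pool was labelled with Cy5 in replicates 2 and 4 of each siRNA and with Cy3 in replicates 1 and 3. The sorted cells are a mixture of cortical cell types, so fewer cells of a type and less RNA per cell cannot be told apart.

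Core histones form the spool around which DNA is wound, and linker histone H1 binds where the DNA enters and leaves it. Most clustered histone genes are replication-dependent: their mRNAs rise in S phase, when new chromatin is built, and usually end in a stem-loop in place of a poly(A) tail. Some of them, Hist1h1c and Hist1h2bc among the best known, also make polyadenylated mRNA outside S phase. In the cortex at this age, radial glia and intermediate progenitors still divide, whereas neurons have left the cell cycle. The labels describe amplification of mRNA from a primer named T7 Mlu VN, whose sequence is not given in the sources used here, so how far it reached mRNAs without a tail was not tested.

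The siRNAs are shown because the histone genes were measured under each of them separately. The labels give each as 19 bases after 2 unspecified bases:
siFoxO6-2: acaugccagugacgacuac
siFoxO6-3: ccaucagccuuaugacgcu
Neither the strand that acts as guide nor a match to a histone transcript was tested.

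The promoters of linker histone genes are shown next because Hist1h1c rose while no other H1 gene was called. The stretches are the 130 bases before the annotated start, 5′ to 3′ on the gene's strand, from RefSeq in build GRCm38.p6. Capitals mark the H1 box AAACACA, the CCAAT box and the TATA box TATAAA, on either strand.
Hist1h1c (chr13:23738677-23738806, plus strand): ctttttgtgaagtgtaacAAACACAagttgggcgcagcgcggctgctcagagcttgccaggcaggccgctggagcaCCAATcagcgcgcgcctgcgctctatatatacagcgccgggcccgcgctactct
Hist1h1e (chr13:23622559-23622688, minus strand): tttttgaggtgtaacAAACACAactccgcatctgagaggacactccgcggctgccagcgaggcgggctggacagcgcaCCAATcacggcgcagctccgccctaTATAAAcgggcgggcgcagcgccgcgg
Hist1h1b (chr13:21780626-21780755, minus strand): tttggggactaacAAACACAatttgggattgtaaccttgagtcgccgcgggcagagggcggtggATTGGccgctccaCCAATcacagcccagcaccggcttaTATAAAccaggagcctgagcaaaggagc
Each of the 3 holds an H1 box and a CCAAT box in nearly the same places, 112 bases (Hist1h1c), 115 bases (Hist1h1e) and 117 bases (Hist1h1b) before the start for the H1 box. Hist1h1c lacks the letters TATAAA in this window, as does Hist1h1t, which was not called either. The H2A promoters below contrast a gene of chromosome 13 and one of chromosome 3 that fell with Hist3h2a of chromosome 11, which rose; capitals here also mark the octamer ATTTGCAT. Of these 3 stretches that of Hist3h2a alone shows an octamer, but Hist2h2ac holds one farther out, 200 bases before the start, and Hist1h2aa, which also fell, one at 124 bases.
Hist1h2ao (chr13:21810237-21810366, plus strand): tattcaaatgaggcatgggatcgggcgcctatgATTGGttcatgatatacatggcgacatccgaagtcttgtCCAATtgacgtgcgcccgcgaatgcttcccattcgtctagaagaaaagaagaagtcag
Hist2h2ac (chr3:96220881-96221010, minus strand): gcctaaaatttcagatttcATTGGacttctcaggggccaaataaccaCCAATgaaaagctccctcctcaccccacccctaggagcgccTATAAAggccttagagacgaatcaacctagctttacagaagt
Hist3h2a (chr11:58954555-58954684, plus strand): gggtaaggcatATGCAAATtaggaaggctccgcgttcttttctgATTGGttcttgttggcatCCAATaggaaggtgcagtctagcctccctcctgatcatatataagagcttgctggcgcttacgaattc
Within 250 bases before the start, promoters were found in the table for 32 of the 37 genes. Hist1h2bc, Hist1h3a, Hist2h2be, Hist2h4 and Hist3h2bb were the others. The CCAAT box was present in 28 of the 32 (87.5%), against 33.8% of all 32851 promoters, and in 11 of 11 H2A and 6 of 6 H1 promoters. The H1 box was in 5 of 6 H1 promoters, against 6.25% of all promoters. The octamer was in 5 of 11 H2A and 4 of 7 H2B promoters, against 1.6% of all. Hist1h2be has 2 annotated starts, of which only the first listed was counted. Its other start has an octamer 67 bases before it. The TATA box stood in 15 of 32, against 12.4% of all. The core of a FoxO site, GTAAACA, which can overlap an H1 box, was in 0 of the 32 and in 3.17% of all promoters. These counts describe letters and say nothing of whether a factor binds.

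All values below are log2 ratios of the siRNA pool over the scrambled pool, after normexp background correction and loess normalization of each array, so a value of 1 is a doubling. The threshold for a call was an adjusted p under 0.05 in limma, adjusted by Benjamini-Hochberg over all 41174 gene probes. Foxo6 itself was lower on 8 of 8 arrays (mean -0.95 ± 0.406 with siFoxO6-2 and -1.65 ± 0.49 with siFoxO6-3, SD, n = 4 each), with a fitted change of -1.30 for both siRNAs (adjusted p = 0.00134), or -0.69 and not called (adjusted p = 0.0706) after median centring. Median spot signal of the siRNA channel ran from 58 (siFoxO6-3 replicate 4) to 123. Over all gene probes, siFoxO6-3 replicate 4 resembled the other arrays least (median r = 0.13), followed by siFoxO6-2 replicate 3 (0.27) and siFoxO6-3 replicate 3 (0.28). Of the 43 histone probes, 39 were above the dim control spots in either channel on all 8 arrays, 3 on some arrays, and 1, for Hist1h2be, on none.

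With both siRNAs together, histone genes moved in both directions: 5 H2A genes fell, while the linker histone gene Hist1h1c, the H2A gene Hist3h2a, the H2B genes Hist1h2bc and Hist2h2be and the H3 gene Hist1h3d rose. In all, 11 of the 43 probes were called, 6 higher and 5 lower, against 11.8% of all gene probes (6.12% higher and 5.73% lower). The H2A class held 6 of the calls, H1 and H2B held 2 each, H3 held 1 and H4 held 0 of 8, of which 1 had an unadjusted p under 0.05 (26.2% of all gene probes did). The median fitted log2 ratio was -0.37 for H2A, 0.036 for H1, 0.069 for H2B, 0.072 for H3 and 0.053 for H4, against 0.0028 for all gene probes. With siFoxO6-2 alone 10 probes were called, 2 higher and 8 lower, against 7.86% of all gene probes (4.08% higher and 3.78% lower). With siFoxO6-3 alone 3 probes were called, all 3 higher, against 0.658% of all gene probes (0.265% higher and 0.393% lower). These comparisons share the scrambled pool, and a p against scrambled leaves out that pool's own spread. With the scrambled pool assumed to vary as much as the siRNA pools, 0 of the 43 probes were called in any of these comparisons (limma, 908 of all gene probes at an unadjusted p under 0.05 for both siRNAs together).

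Linker histone Hist1h1c, which codes for the somatic variant H1.2, rose, most clearly with siFoxO6-3. Its brighter probe stood at 0.31, -0.31, 0.46 and 0.57 in siFoxO6-2 replicates 1 to 4 and at 0.97, 0.88, 1.27 and 0.93 in siFoxO6-3 replicates 1 to 4. The dimmer probe stood at 0.087, 0.14, 0.39 and 0.22 with siFoxO6-2 and at 0.75, 1.04, 1.09 and 0.96 with siFoxO6-3. On both probes every siFoxO6-3 array was above every siFoxO6-2 array, and only the brighter probe on siFoxO6-2 replicate 2 was below 0. For both siRNAs together the rise was 0.63 (SE 0.0888, limma adjusted p = 0.00654) on the brighter probe and 0.59 (SE 0.0495, adjusted p = 0.00167) on the dimmer one, or 1.55-fold and 1.5-fold. Leaving out any 1 array kept both calls, at 0.55 to 0.72. With siFoxO6-3 the probes rose by 1.01 (adjusted p = 0.032) and 0.96 (adjusted p = 0.0165), which is 2.02-fold and 1.95-fold. With siFoxO6-2 they stood at 0.25 (adjusted p = 0.296) and 0.21 (adjusted p = 0.125) and were not called.

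The siFoxO6-3 calls of Hist1h1c were lost without several of the arrays, left out 1 at a time, while the values stayed of like size. Both were lost on leaving out siFoxO6-2 replicate 1, or replicate 1 or 2 of siFoxO6-3, and the brighter probe also without siFoxO6-3 replicate 3 or 4, at similar size (0.96 to 1.08 and 0.93 to 1.04, adjusted p from 0.0553 to 0.162). Trended robust variances gave adjusted p = 0.277 for both. Over all gene probes the siFoxO6-3 calls also went from 271 to 2 without siFoxO6-2 replicate 1. They went to 0 without siFoxO6-3 replicate 1 or 2, to 29 or 39 without its replicate 3 or 4, and to 0 with trended robust variances. With median centring the dimmer probe stayed called for both siRNAs together (1.09, adjusted p = 0.0478). The brighter one did not (1.19, adjusted p = 0.0539). That scaling put gene probes of log2 intensity 8 to 9 at a median of 0.47 and those of 9 to 10 at 0.57.

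**Figure D1:**
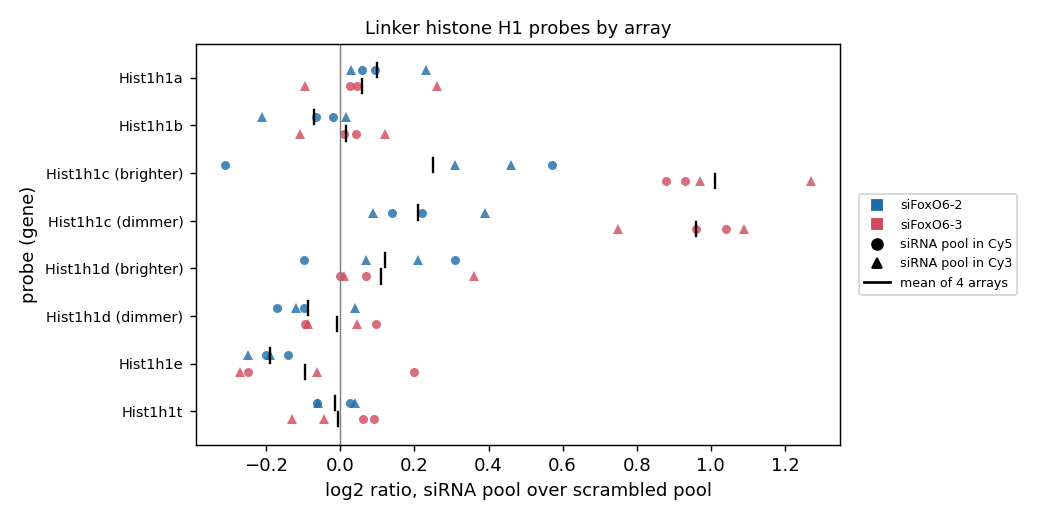
Log2 ratio of the siRNA pool over the scrambled pool (x axis) for the 8 linker histone H1 probes (y axis), 1 point per array, coloured by siRNA and shaped by dye, with black bars at the mean of 4 arrays. Both Hist1h1c probes lie between 0.75 and 1.27 on the siFoxO6-3 arrays, apart from siFoxO6-2, while the other 6 probes stay near 0.

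The other 5 linker histone genes were not called in any comparison. Hist1h1e, the H1.4 gene, was the lowest, at -0.14 for both siRNAs (SE 0.0511, adjusted p = 0.119), lower on 7 of 8 arrays, with siFoxO6-3 replicate 4 at 0.20 the exception. Hist1h1a (H1.1) stood at 0.081, Hist1h1b (H1.5) at -0.027 and the testis variant Hist1h1t at -0.0093. The 2 probes of Hist1h1d (H1.3) stood at 0.11 and -0.048. These 6 probes were dim, with a mean log2 intensity of 6.21 to 6.71.

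Of the 11 H2A genes, 8 ran together and low, and 5 of these were called for both siRNAs. The deepest fall was in Hist1h2ao, followed by Hist1h2af, Hist1h2aa, Hist2h2ac and Hist2h2aa1. Hist1h2aa is known as the testis-specific H2A gene, and the others code for nearly identical H2A proteins. Hist1h2ao stood at -1.42, -1.46, -0.78 and -1.78 in siFoxO6-2 replicates 1 to 4 and at -1.29, -0.52, -0.73 and 0.19 in siFoxO6-3 replicates 1 to 4. It was below 0 on every array but siFoxO6-3 replicate 4, and the groups overlapped. Its fitted change was -0.98 for both siRNAs (SE 0.164, limma adjusted p = 0.0117), to 0.509 of the scrambled level, and leaving out any 1 array kept the call, at -1.11 to -0.85.

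Hist2h2ac, which lies on chromosome 3 beside Hist2h2be, gave -1.20, -1.31, -0.55 and -1.53 with siFoxO6-2 and -1.25, -0.26, -0.71 and 0.24 with siFoxO6-3. Hist1h2af gave -1.25, -1.26, -0.82 and -1.59, then -1.27, -0.47, -0.70 and 0.36. Again the same array, siFoxO6-3 replicate 4, was the only one above 0. The fitted changes for both siRNAs were -0.88 for Hist1h2af (adjusted p = 0.016), -0.85 for Hist1h2aa (0.019), -0.82 for Hist2h2ac (0.0221) and -0.77 for Hist2h2aa1 (0.0161). These calls were lost without some single arrays. Calls over all gene probes also fell, from 4879 to between 2103 and 3148, without any 1 array except siFoxO6-2 replicate 3 and siFoxO6-3 replicate 4. Hist1h2aa and Hist2h2ac were lost on leaving out any 1 array except siFoxO6-2 replicate 3 and siFoxO6-3 replicate 4, at -0.85 to -0.69 (adjusted p = 0.0515 to 0.072). Hist1h2af was lost without replicate 2 or 4 of siFoxO6-2 or replicate 2 of siFoxO6-3, at -0.86 to -0.78. Hist2h2aa1 was lost without replicate 1 of siFoxO6-2 and without replicate 1 or 2 of siFoxO6-3, at -0.78 to -0.71.

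Hist1h2ad, Hist1h2ai and Hist1h2ak, the others of the 8, just missed the threshold for both siRNAs, at -0.37 (adjusted p = 0.0502), -0.29 (0.0675) and -0.37 (0.0502). With siFoxO6-2 alone they were called, at -0.67 (adjusted p = 0.0304), -0.60 (0.0274) and -0.66 (0.0308), as were the 5 above, at -1.36 (Hist1h2ao, adjusted p = 0.0171) to -1.15 (Hist2h2ac, 0.0305). With siFoxO6-3 alone none of the 8 was called in limma. Of these 1, Hist1h2ao, had an unadjusted p under 0.05 (0.0367), as did 5790 of all 41174 gene probes. Fitted values of the 8 ran from -0.59 (Hist1h2ao, adjusted p = 0.317) to 0.02 (Hist1h2ai). All 8 siFoxO6-2 calls were lost without siFoxO6-2 replicate 1, 2 or 4, with values of -1.37 to -0.50. Without siFoxO6-3 replicate 2, those of Hist1h2aa, Hist1h2ad, Hist1h2ai, Hist1h2ak and Hist2h2ac were lost too, and without siFoxO6-3 replicate 3 those of Hist1h2ak and Hist2h2ac.

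**Figure D2:**
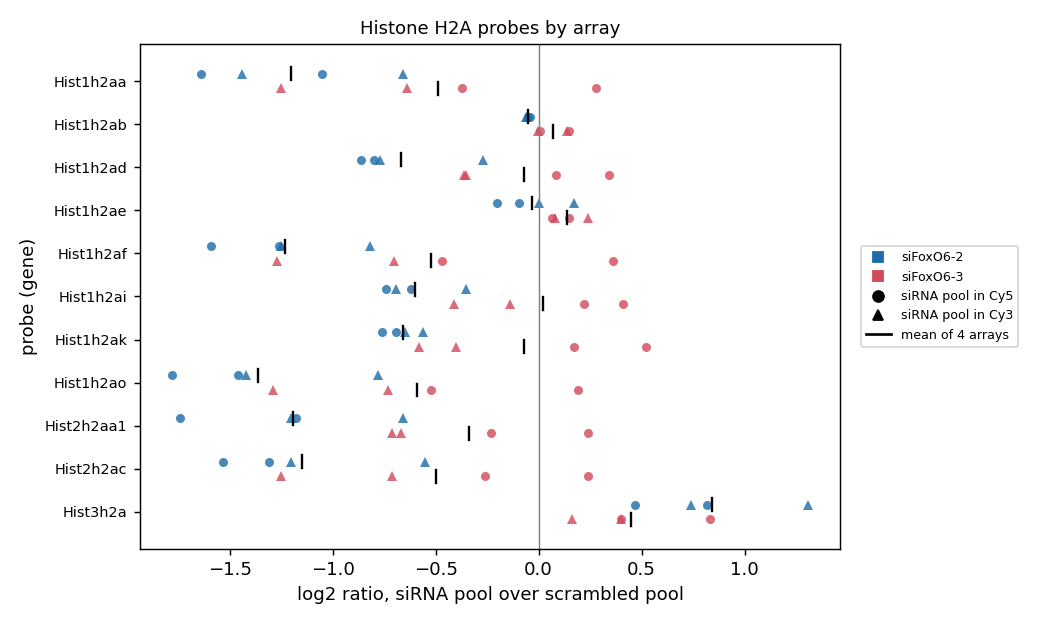
Log2 ratio of the siRNA pool over the scrambled pool (x axis) for the 11 H2A probes (y axis), 1 point per array, coloured by siRNA and shaped by dye, with black bars at the mean of 4 arrays. For 8 genes the siFoxO6-2 points lie between -1.78 and -0.27 and the siFoxO6-3 points between -1.29 and 0.52, while Hist3h2a lies above 0 on every array.

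Grouped after their values were seen, these 8 probes had array medians of -1.20, -1.11, -0.65 and -1.56 with siFoxO6-2 and of -0.96, -0.25, -0.67 and 0.31 with siFoxO6-3. The other 35 histone probes had array medians between -0.066 and 0.21. On siFoxO6-3 replicate 4, which carried the siRNA pool in Cy5 and had the dimmest siRNA channel, all 8 were above 0. H2A genes are close copies of one another, and the probe sequences were not used here, so the 8 probes cannot be taken as 8 separate measurements and reads of a copy by another copy's probe were not tested.

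The other H2A genes did not fall. Hist3h2a, which codes for an H2A on chromosome 11, away from the large clusters, stood at 0.74, 0.47, 1.31 and 0.82 with siFoxO6-2 and at 0.40, 0.40, 0.16 and 0.83 with siFoxO6-3. It was above 0 on 8 of 8 arrays, and the groups overlapped. It rose by 0.64 for both siRNAs (SE 0.102, limma adjusted p = 0.01), or 1.56-fold, at 0.55 to 0.71 and still called without any 1 array. It was also called after median centring (1.35, adjusted p = 0.0399). That scaling raised bright probes in general, with medians of 0.62 and 0.73 at log2 intensities of 10 to 11 and 11 to 12. With siFoxO6-2 Hist3h2a rose by 0.84 (adjusted p = 0.0181, lost without siFoxO6-2 replicate 1 or 4 at 0.84 to 0.88). With siFoxO6-3 it stood at 0.45 (adjusted p = 0.226). Hist1h2ab (0.0098) and Hist1h2ae (0.052) were dim and not called.

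Among the 12 H2B probes, Hist1h2bc and Hist2h2be rose and none fell. Hist1h2bc stood at 0.54, 0.056, 1.12 and -0.07 with siFoxO6-2 and at 0.98, 1.03, 1.11 and 0.43 with siFoxO6-3. The siFoxO6-2 arrays were spread, with both Cy3 replicates high and both Cy5 replicates near 0, and they overlapped the siFoxO6-3 arrays. Its rise was 0.65 for both siRNAs (SE 0.0941, limma adjusted p = 0.0073), or 1.57-fold, kept at 0.56 to 0.69 without any 1 array. The call was also kept at 1.2 after median centring (adjusted p = 0.0481). That scaling put gene probes of log2 intensity 9 to 10 at a median of 0.57. With siFoxO6-3 the rise was 0.89 (adjusted p = 0.044). This call was lost without any 1 array except siFoxO6-2 replicate 3 (0.71 to 0.97, adjusted p = 0.0738 to 0.17). It was also lost under 7 of the other settings tried.

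Hist2h2be, the neighbour of Hist2h2ac on chromosome 3, stood at 0.023, 0.32, -0.082 and 0.15 with siFoxO6-2 and at 0.44, 0.44, 0.12 and 0.31 with siFoxO6-3. It was above 0 on 7 of 8 arrays. Its rise was small, 0.21 for both siRNAs (SE 0.0445, adjusted p = 0.0236), and was lost without siFoxO6-2 replicate 1, 2 or 4 or siFoxO6-3 replicate 2 (0.19 to 0.22), and under 3 of the other settings tried, median centring among them (0.59, adjusted p = 0.0689). So 1 of these adjoining genes fell by 0.82 and the other rose by 0.21. At another adjoining pair, the divergently placed testis genes Hist1h2aa and Hist1h2ba, the Hist1h2aa probe fell by 0.85. The probe of the H2B gene Hist1h2ba stood at 0.12 (limma adjusted p = 0.084). The Hist1h2aa probe was bright (mean log2 intensity 11.4). Whether the Hist1h2aa and Hist2h2ac probes read other H2A copies was not tested, so these contrasts are between probes and may not be between the neighbouring genes.

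The remaining H2B probes were not called, with values for both siRNAs from -0.082 (Hist2h2bb) to 0.21 (Hist1h2bb, adjusted p = 0.146). The bright Hist3h2ba stood at -0.34, -0.28, 0.47 and -0.38 with siFoxO6-2 and at -0.019, -0.18, 0.19 and 0.79 with siFoxO6-3. Within each siRNA 1 array stood well above the others, replicate 3 for siFoxO6-2 and replicate 4 for siFoxO6-3, and the fitted change was 0.031 (adjusted p = 0.919).

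Of 4 H3 probes, Hist1h3d rose and the others were not called. Hist1h3d stood at 0.10, 0.72, 0.37 and 0.41 with siFoxO6-2 and at 0.16, 0.30, -0.25 and 0.14 with siFoxO6-3. It was above 0 on every array but siFoxO6-3 replicate 3, and the groups overlapped. It rose by 0.24 for both siRNAs (SE 0.0585, limma adjusted p = 0.0386) and by 0.40 with siFoxO6-2 (adjusted p = 0.0311). Both calls were lost without siFoxO6-2 replicate 1, 2 or 4 or siFoxO6-3 replicate 2, and that for both siRNAs also without siFoxO6-3 replicate 1 (0.20 to 0.27 and 0.33 to 0.46), and each was lost under 6 of the other settings tried, median centring among them. Hist1h3d adjoins Hist1h2ad on chromosome 13, which stood at -0.37. Hist2h3b stood at 0.18 for both siRNAs (adjusted p = 0.109) and 0.33 with siFoxO6-2 (adjusted p = 0.0685), Hist2h3c1 at -0.056 and Hist1h3a at -0.041.

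None of the 8 H4 probes was called in any comparison, and all had low intensities (mean log2 of 5.85 to 7.38). Their values for both siRNAs ran from -0.042 (a Hist4h4 probe) to 0.15 (Hist1h4h, adjusted p = 0.0744, above 0 on 6 of 8 arrays). Hist1h4i was the H4 gene that differed most between siRNAs, at -0.16, -0.29, 0.097 and -0.11 with siFoxO6-2 and at 0.22, 0.13, 0.21 and 0.29 with siFoxO6-3, without overlap. Hist1h4a stood at 0.026, and the brighter and dimmer probes of Hist1h4d at 0.057 and 0.084.

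**Figure D3:**
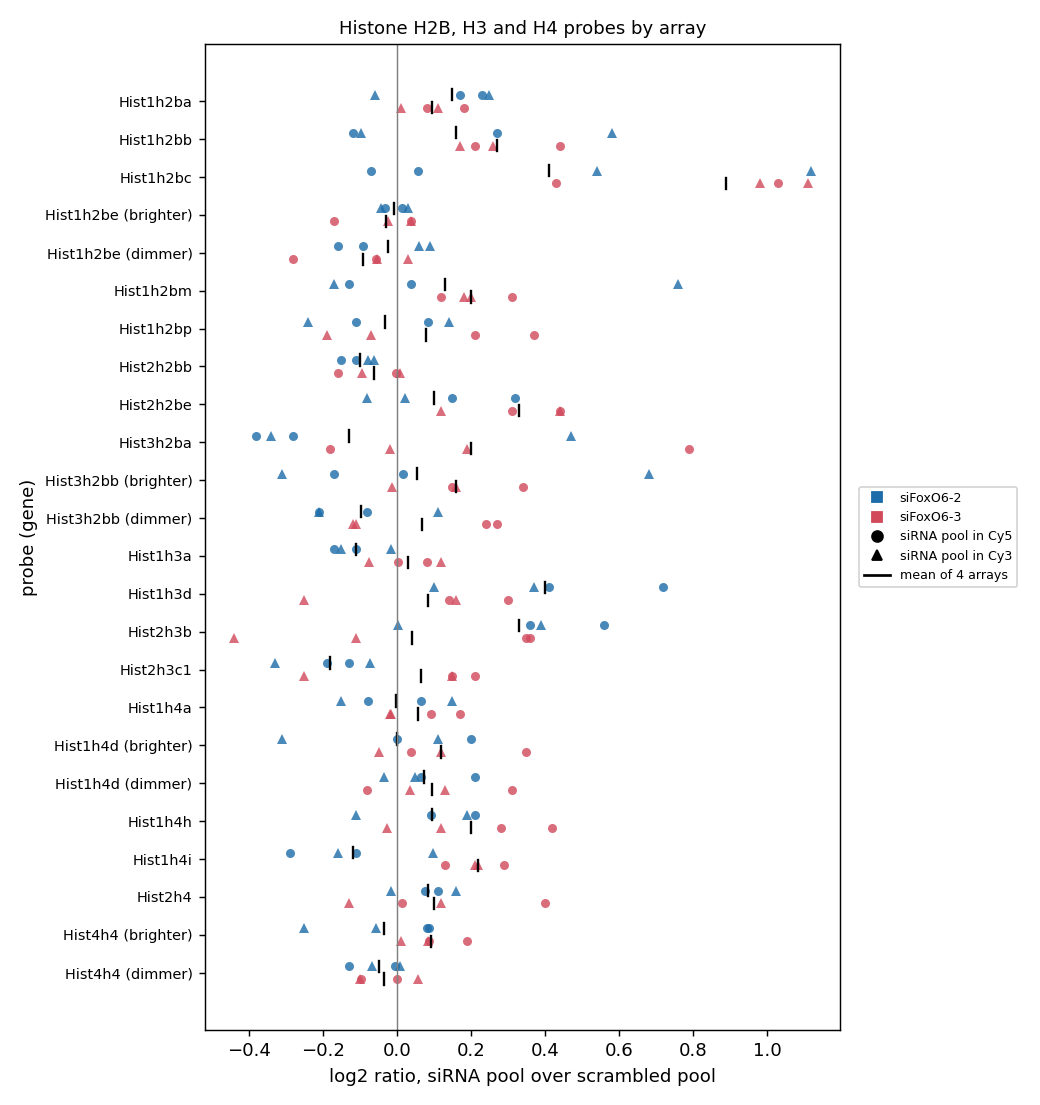
Log2 ratio of the siRNA pool over the scrambled pool (x axis) for the 12 H2B, 4 H3 and 8 H4 probes (y axis), 1 point per array, coloured by siRNA and shaped by dye, with black bars at the mean of 4 arrays. Hist1h2bc reaches 1.12 and is the only probe of these classes with a mean above 0.5.

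The siRNAs were then compared with each other, a contrast in which the scrambled pool cancels. None of the 43 probes was called in limma, nor any of the 41174 gene probes (0%). At an unadjusted p under 0.05, 12 of 43 histone probes (27.9%) differed, against 6.77% of all gene probes. On 4 of 43 probes the arrays of the siRNAs did not overlap, against 3.58% of all gene probes, and all 4 were higher with siFoxO6-3, against 1.78% of all gene probes: both Hist1h1c probes, Hist1h2ab and Hist1h4i. For Hist1h1c the difference was 0.76 on the brighter probe (95% interval 0.34 to 1.17, adjusted p = 0.415) and 0.75 on the dimmer one (0.52 to 0.98, unadjusted p = 8.8e-05, adjusted p = 0.173). It was 0.78 and 0.82 between the Cy5 arrays and 0.74 and 0.68 between the Cy3 arrays, so it was of like size in both dye orientations. For Hist1h4i it was 0.33 (0.14 to 0.53, adjusted p = 0.431), with 0.41 on the Cy5 and 0.25 on the Cy3 arrays.

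The 8 low H2A genes were less low with siFoxO6-3, by 0.59 (Hist1h2ak, interval 0.14 to 1.04) to 0.85 (Hist2h2aa1, 0.19 to 1.51), none of them called. The difference was larger between the Cy5 arrays for each of the 8. For Hist1h2ao it was 1.46 between the Cy5 arrays and 0.093 between the Cy3 arrays, and for Hist2h2ac 1.41 and -0.11, with 2 arrays of each siRNA in each orientation. The Cy5 arrays of siFoxO6-3 are replicate 4 and replicate 2, and replicate 2 alone, at -0.52 for Hist1h2ao and -0.26 for Hist2h2ac, also stood above both Cy5 arrays of siFoxO6-2 (-1.46 and -1.78, -1.31 and -1.53). Hist3h2a and Hist1h3d went the other way, at -0.39 (-0.87 to 0.089) and -0.31 (-0.59 to -0.041) for siFoxO6-3 minus siFoxO6-2.

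**Figure D4:**
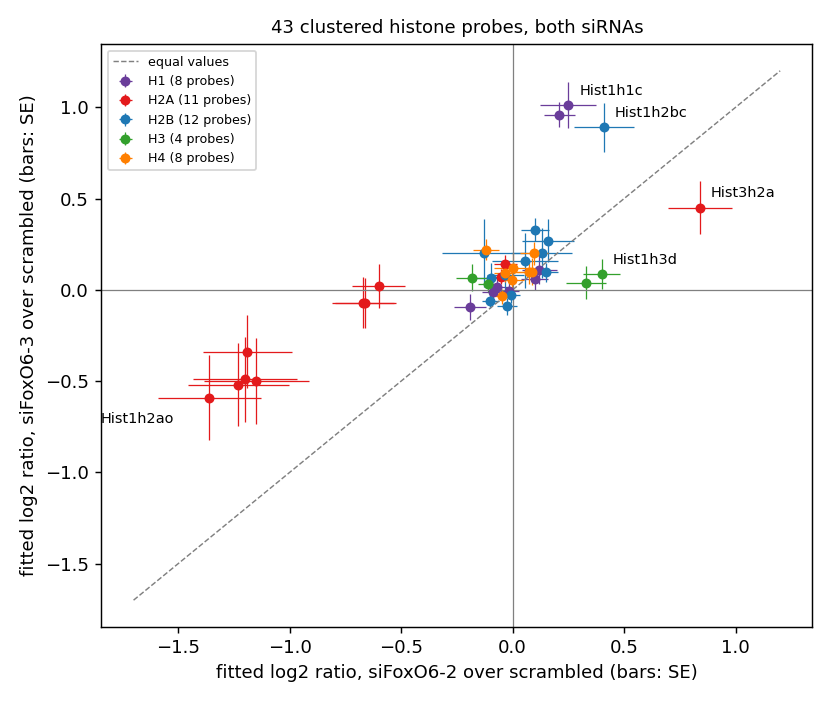
Fitted log2 ratio with siFoxO6-3 (y axis) against that with siFoxO6-2 (x axis) for the 43 histone probes, with standard errors, both measured against the same scrambled pool. Hist1h1c (0.25 and 1.01, 0.21 and 0.96) lies above the line of equal values, the 8 low H2A genes lie left of 0 and nearer to 0 on the y axis, and Hist3h2a lies below the line.

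How far the H2A genes fell depended on the scaling of the arrays. Loess sets the median of genes at each intensity to 0, whereas centring each array on its median leaves an intensity trend: after centring, gene probes with a mean log2 intensity of 10 to 11 had a median of 0.62, those of 11 to 12 one of 0.73, and those under 7 one of -0.15. After centring, the 5 H2A genes called as lower stood at -0.21 (Hist1h2ao) to -0.096 (Hist1h2aa) with both siRNAs, adjusted p = 0.273 to 0.612, and the other 3 turned to 0.057 (Hist1h2ai), 0.09 (Hist1h2ak) and 0.17 (Hist1h2ad). With siFoxO6-3 alone all 8 stood above 0 after centring, at 0.14 to 0.46, none called. With both siRNAs together the 8 were below the median of probes of like intensity under both scalings. A fall against the scrambled pool was called for 5 of them with loess and for none after centring. The deposited log2 ratios, whose making is not given, also called these 5, at -0.96 (Hist1h2ao) to -0.76 (Hist2h2aa1) (limma adjusted p = 0.00706 to 0.0214). Centring left 3 histone calls for both siRNAs, all higher: Hist3h2a, Hist1h2bc and the dimmer Hist1h1c probe. Over all gene probes it left 506 of 41174. Since centring raised bright probes in general, these 3 values (1.35, 1.2 and 1.09) include a shift shared with probes of like intensity. The median of gene probes was 0.47 at log2 intensities of 8 to 9 and 0.57 at 9 to 10. With loess the 3 stood at 0.64, 0.65 and 0.59.

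**Figure D5:**
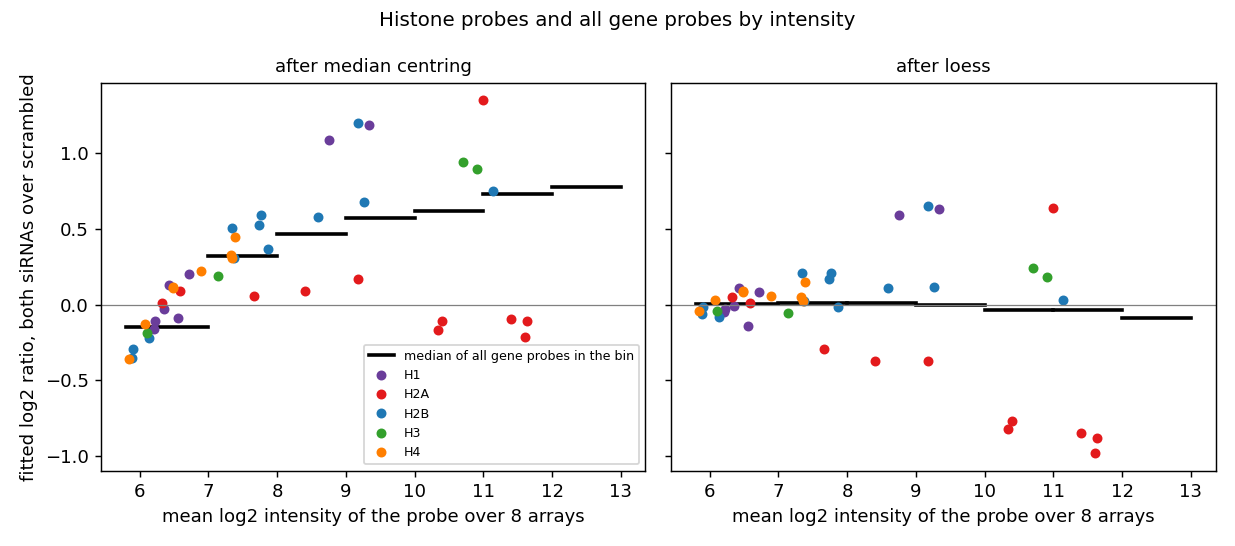
Fitted log2 ratio for both siRNAs over scrambled (y axis) against mean log2 intensity over the 8 arrays (x axis) for the 43 histone probes, after median centring (left) and after loess (right); black bars give the median of all gene probes per intensity bin. The low H2A genes lie below the bars in both panels, while their distance from 0 differs.

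The histone genes outside the clusters, whose mRNAs are mostly polyadenylated, gave 0 rises and 3 falls among 11 measured genes for both siRNAs (median -0.026), where 6.12% of all gene probes rose and 5.73% fell. H2afj, an H2A variant, stood at -1.19, -1.17, -0.62 and -1.47 with siFoxO6-2 and at -1.01, -0.38, -0.55 and 0.28 with siFoxO6-3. It too was above 0 on siFoxO6-3 replicate 4 alone. Its change for both siRNAs was -0.76 (limma adjusted p = 0.0167). Whether the H2afj probe reads transcripts of the clustered H2A genes was not tested, so its fall cannot be taken as a separate measurement. The macroH2A gene H2afy fell by 0.41 (adjusted p = 0.0125) and the linker variant H1fx by 0.22 (adjusted p = 0.0199), each lower on all 8 arrays. After median centring none of the 3 was called, with H2afj at -0.017, H1fx at -0.098 and H2afy turned to 0.14, and the list's median was 0.66. H2afx (-0.026) and Cenpa (0.15), the H3 variant of centromeres, were not called.

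Factors that act in the making or turnover of histone mRNA showed 1 rise and 3 falls among 16 genes (median -0.024). Beside this, 6.12% of all gene probes were higher and 5.73% lower. The cap-binding subunit Ncbp2 rose by 0.64 (adjusted p = 0.00831), and Coil, which organizes Cajal bodies, fell by 0.31 (adjusted p = 0.00573), the cleavage nuclease Cpsf3 by 0.43 (0.00592) and Ncbp1 by 0.20 (0.031). After centring the falls turned to 0.17 (Coil), 0.13 (Cpsf3) and 0.21 (Ncbp1), none called, Ncbp2 stood at 0.94 and just missed the threshold (adjusted p = 0.0567), and the list's median was 0.21. The stem-loop binding protein gene Slbp stood at 0.051 and the histone gene activator Npat at -0.25 (adjusted p = 0.0603). Of 18 histone chaperones 0 rose and 2 fell, Nap1l1 by 0.63 (adjusted p = 0.0275), which carries H2A with H2B, and Chaf1a by 0.24 (0.0173), beside 5.73% of all gene probes lower. After centring neither was called, with Nap1l1 turned to 0.074 and Chaf1a at -0.15, and the list's median moved from -0.12 to 0.36.

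Genes of S phase, when most clustered histone mRNA is made, gave 0 rises and 16 falls among 29 measured genes for both siRNAs, beside 5.73% of all gene probes lower, with a median of -0.38, against 0.0028 for all gene probes. With siFoxO6-2 the median was -0.66 and 16 fell, beside 3.78% of all gene probes, and with siFoxO6-3 it was -0.06, while after centring it was 0.13 for both siRNAs. The smallest p-values were those of Uhrf1 (-1.03, limma adjusted p = 0.00145), the DNA polymerase subunit Pold1 (-0.64, 0.00176) and the DNA ligase Lig1 (-0.51, 0.00199). After centring none of the 29 was called. Uhrf1 then stood at -0.41 (limma adjusted p = 0.164) and Pold1 at -0.14 (0.512), and Lig1 turned to 0.053 (0.824). With loess the array medians of the S phase genes were -0.59, -0.65, -0.57 and -0.49 with siFoxO6-2 and -0.13, 0.072, 0.14 and -0.32 with siFoxO6-3. On siFoxO6-3 replicate 4 this median was below 0 while that of the 8 low H2A genes was above 0. The class medians of H3 and H4 ran from -0.0017 to 0.11 under single siRNAs. The H4 probes, Hist1h3a and Hist2h3c1 had low intensities (mean log2 of 5.85 to 7.38), which limits what they could show. The 8 low H2A probes were brighter, at 7.66 to 11.63. Whether the histone values follow those of the S phase genes was not tested.

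Markers of cell types that the sorted cells could hold were measured beside the histone genes, with 6.12% of all gene probes higher and 5.73% lower as the background to each count. Of 7 microglia markers 3 rose and 0 fell, with Aif1 at 0.28 (adjusted p = 0.00223) and Csf1r at 0.46 (0.00601), and array medians from 0.03 to 0.40. Of 7 radial glia markers 0 rose and 2 fell (array medians -0.52 to 0.0023), of 3 intermediate progenitor markers 1 fell (-0.13 to 0.17), and of 5 cortical neuron markers 1 fell (-0.29 to 0.45). Of 5 endothelium markers 1 rose (array medians -0.068 to 0.51), and of 5 interneuron and 4 erythroid markers none passed (array medians -0.54 to 0.49 and -0.50 to 0.45), the lowest limma adjusted p being 0.0853 for Dlx1 and 0.365 for Epb4.2. After centring Aif1 (0.31), Csf1r (0.86) and the markers called as lower, Nes (0.055), Hes5 (-0.30), Eomes (0.36) and Bcl11b (0.11), were not called. Every measured marker was above the dim control spots on all 8 arrays, the defining neuron and radial glia markers Tbr1, Pax6 and Sox2 included, and the part of any cell type in the histone values was not tested.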

How the data were processed

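Each deposited scanner file holds, per the file headers, the uncorrected intensity of every spot in both channels beside its local background. A deposited table gives log2 ratios of siRNA over reference, centred near 0; how the authors made it is not given in the sources used here. Main values came from mean spot intensities (45220 spots, 41174 gene probes), with normexp correction (offset 50) and loess within arrays, controls at weight 0. Loess assumes that at each intensity most genes do not change. R 4.3.3 and limma 3.58.1 (lmFit, eBayes) fitted 1 coefficient per siRNA, signed by dye, and a dye term, with 5 residual degrees of freedom; tests were two-sided. Probes took the symbol paired with them on the platform (6988 had none). Dim controls were 959 control spots, at the 97.5th percentile. The procedure was tested on simulated data. The number of arrays limits the precision.

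The members, the lists of other genes and the tests were chosen with earlier results of these data known. Named probes were those called in any comparison and, in each class, the 2 brightest and the 2 of smallest p per comparison; from other lists, up to 3 of smallest p, with other members named after their values were seen. List members were measured by their brightest probe. Alternatives covered background, spot statistic, scaling, dim probes, dye term, replicate block, the deposited table, probe rule, array weights, variance model, fits of 1 siRNA, the reference pool's spread and each array left out. Slide and scan were not used here.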

Additional observations from a re-analysis of the deposited data

Results flagged for a closer look

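Of 52 groups of 4 arrays examined, 3 held an array that stood far from the other 3 by Dixon's ratio, and chance alone marks about 1 in 20 groups. Hist1h2ad stood at -0.27 on siFoxO6-2 replicate 3, against -0.86 to -0.77 on the other siFoxO6-2 arrays. Hist3h2ba stood at 0.47 on siFoxO6-2 replicate 3, against -0.38 to -0.28 on the others. Hist2h3c1 stood at -0.25 on siFoxO6-3 replicate 1, against 0.15 to 0.21 on the others.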

How the results depend on the processing

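Of the 24 called values of histone probes, none changed direction under any alternative run. For both siRNAs together, 11 probes were called, 3 with median centring (all higher, so that the split moved from 6 higher and 5 lower), 0 with the reference pool's spread added, and 5 to 15 without 1 array. With siFoxO6-2, 10 were called, 0 with median centring, 5 with trended robust variances, 4 with siFoxO6-2 arrays alone, 0 with the reference pool's spread, and 0 to 10 without 1 array (0 without siFoxO6-2 replicate 1 or 4, 1 without replicate 2 and 4 without siFoxO6-3 replicate 2). With siFoxO6-3, 3 were called, 0 with median centring, with trended robust variances or with the reference pool's spread, and 0 to 4 without 1 array (0 without siFoxO6-2 replicate 1 or siFoxO6-3 replicate 1 or 2). The number of calls over all gene probes moved as well. For both siRNAs it was 4879, 506 with median centring, 0 with the reference pool's spread and 2103 to 8127 without 1 array. With siFoxO6-2 it was 3236, 0 with median centring or the reference pool's spread and 456 to 6382 without 1 array. Trended robust variances or siFoxO6-2 arrays alone left 498. With siFoxO6-3 it was 271, 0 with median centring, trended robust variances or the reference pool's spread, and 0 to 1534 without 1 array. The cause was not tested. For the difference between siRNAs, 0 histone probes were called in every setting run for it. Over all gene probes that difference had 0 calls in the main fit and at most 12, with array weights. Background, spot statistic, dim probes, probe rule, dye term, array weights and the deposited table gave counts of histone probes within 1.5 times. Counts over all gene probes moved more in some of these settings. Array weights gave 8573 for both siRNAs, 8473 with siFoxO6-2 and 708 with siFoxO6-3, and median spot intensities gave 475 with siFoxO6-3.

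Whether replicate numbers pair the pools could not be settled. Same-numbered arrays deviated together with r = 0.524, 0.182, -0.0922 and -0.279, or 0.36, -0.177, -0.294 and -0.528 after the dye term. These arrays also share a dye orientation, and deviations from a mean of 4 arrays are not independent of each other. A replicate block gave 10 calls for both siRNAs, 5 with siFoxO6-2, 1 with siFoxO6-3 and 0 for the difference. A slide or scan block was not run. Hist1h2be and Hist4h4 probes were not above the dim controls on all arrays, which limits what they could show. The p-values measure the spread between siRNA pools, and those against scrambled leave out the spread of the scrambled pool.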
